A study of Homo sapiens with 6 samples.

Results

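The 10 genes described here encode the cystine/glutamate exchanger known as system xc- and amino acid transporters of the plasma membrane related to it by partner, family or substrate. They were taken by gene symbol from a count table of 25336 genes: SLC7A11, SLC3A2, SLC7A5, SLC7A6, SLC7A7, SLC7A1, SLC1A5, SLC1A4, SLC38A1 and SLC38A2. All 10 were found once in the table, and all 10 passed the low-count filter that left 15305 genes for testing. RNA was sequenced from THP-1, an established line of human monocytic acute myeloid leukaemia, in 3 control libraries and 3 libraries from cells given pristimerin, a plant triterpenoid with a quinone methide group. The group of each library was read from its sample description, as the library titles name no treatment. Titles of the pristimerin libraries hold the cell line name and a number, and those of the control libraries a letter and a number. Every direction given here rests on the descriptions, and the assignment of groups was not tested. The labels name no vehicle, dose, exposure time or further agent for either group. The series title concerns ferroptosis brought on by erastin, a compound that blocks system xc-, and names ATF3 together with SLC7A11. No library carries an erastin label, and the comparison is pristimerin against control.

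System xc- is built from a light chain, SLC7A11, which carries the substrates, and a heavy chain, SLC3A2, a glycoprotein also called CD98 that brings the light chain to the cell surface. It takes in cystine and releases glutamate, and the imported cystine is reduced to cysteine for glutathione synthesis, which restrains lipid peroxidation and ferroptosis. SLC3A2 serves other light chains as well, so its level bears on the uptake of leucine, arginine and glutamine too. Transcription of SLC7A11 is known to be driven by NRF2, the factor of the oxidant and electrophile response, and by ATF4, the factor of the amino acid starvation response, and to be repressed by ATF3.

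Library totals ran from 19057219 to 30568593 counts, so that 3 counts equalled 0.0981 to 0.157 CPM (counts scaled to the library total). The first principal component of all tested genes held 56.7% of the variance and separated the groups, while replicate 2 of both groups stood apart from the other libraries on the second, which held 13.1%. The monocytic markers summed to between 1830 and 2020 CPM in control and 1960 and 1990 in pristimerin libraries. LYZ and SPI1 were abundant, whereas CD14 (mean 0.658 CPM) and CD68 (0.423 CPM), also listed as markers of these cells, were below 1 CPM. Markers of erythroid cells and epithelium summed to at most 0.247 CPM in any library, and so did those of T cells, of which 1 of 5 was in the table. Fibroblast markers summed to between 1.08 and 1.84 CPM in control and 0.564 and 1.11 in pristimerin libraries, and their part in the results was not tested. In bulk RNA, fewer cells expressing a gene and less RNA per cell cannot be told apart. The labels do not say whether the replicates were separate cultures, so p-values measure the spread between these libraries only.

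Among the 10 transporters, edgeR's quasi-likelihood test called 3 lower and 0 higher in pristimerin libraries, the threshold being 0.05 for p-values adjusted over the whole table. The 3 were SLC7A11, SLC3A2 and SLC7A5, and they lay in the order -1.68, -0.83 and -0.56 of log2 fold change. The other 7 had log2 fold changes between -0.27 and 0.21. Over all 15305 genes, 15.1% were called lower and 14.5% higher, 29.6% in all, so the share of members called was about that of the background. Upper-quartile scaling split the calls over all genes into 1523 higher and 3052 lower, and library totals into 1392 higher and 3219 lower, against 2216 higher and 2313 lower here. Without adjustment, 1 member was higher and 4 were lower at p under 0.05, and DESeq2 called 1 higher and 3 lower. The median log2 fold change of the 10 members was -0.14, beside -0.01 over all genes tested.

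**Figure D1:**
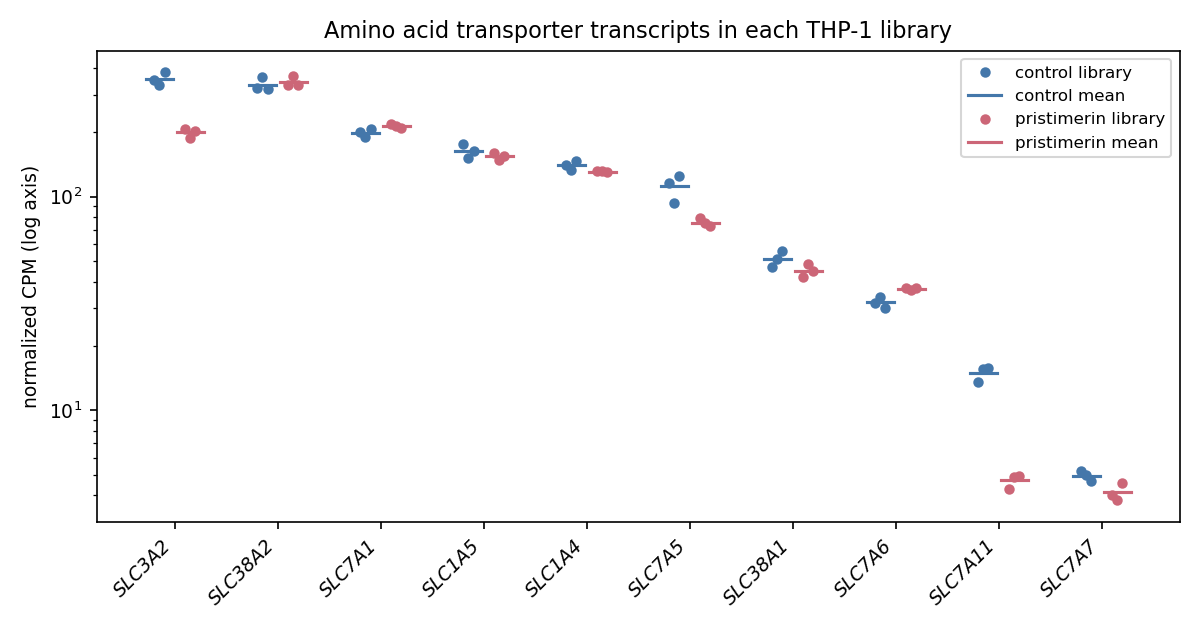
Normalized CPM (log axis) of the 10 transporter genes in each of the 3 control (blue) and 3 pristimerin (red) libraries, with a bar at each group's mean. The pristimerin points of SLC7A11, SLC3A2 and SLC7A5 lie below all control points, while those of SLC38A2, SLC1A5 and SLC38A1 overlap the control points.

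SLC7A11, the substrate-carrying light chain of system xc- (ENSG00000151012, a protein-coding gene on the minus strand of chromosome 4, 138164097 to 138242349 in hg38), fell the most of the 10. It was read 368, 449 and 306 times in control replicates 1, 2 and 3 and 129, 126 and 116 times in pristimerin replicates 1, 2 and 3. Relative to the TMM-scaled library totals this was 13.5, 15.6 and 15.8 CPM in control and 4.29, 4.86 and 4.92 CPM in pristimerin libraries. Every pristimerin library was thus below the lowest control library, and the highest of the 3 pristimerin values was under 5 CPM. The level in pristimerin libraries was 31.3% of that in control (log2 fold change -1.68, SE 0.11, 95% interval -1.91 to -1.44, adjusted p = 7.89e-09 in edgeR's test). With limma on log2(FPKM + 1), a pseudocount larger than its pristimerin values, the difference was -0.81 (adjusted p = 0.00024). Ordered by fold change, SLC7A11 was number 96 of the 2313 genes called lower.

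SLC3A2, the heavy chain (ENSG00000168003, on the plus strand of chromosome 11, 62856004 to 62888880), measured 352.6, 332.2 and 382.4 CPM in control and 207.7, 188.5 and 202.5 CPM in pristimerin libraries. The groups did not overlap, and the gap between them was wider than the range within either. Its level in pristimerin libraries was 56.1% of that in control (-0.83, SE 0.07, 95% interval -0.97 to -0.70, adjusted p = 6.11e-08 in edgeR's test). SLC7A5, the light chain LAT1, which exchanges large neutral amino acids such as leucine for glutamine (ENSG00000103257, on the minus strand of chromosome 16, 87830023 to 87869507), measured 116, 93.7 and 125 CPM in control and 79.4, 75.1 and 72.5 CPM in pristimerin libraries. Control replicate 2 lay nearest to the pristimerin libraries but still above them. The level of SLC7A5 was 67.9% of control (-0.56, SE 0.09, 95% interval -0.74 to -0.37, adjusted p = 0.000143 in edgeR's test). Without control replicate 2 the log2 fold changes of SLC7A11, SLC3A2 and SLC7A5 were -1.64, -0.88 and -0.67, and without pristimerin replicate 2 they were -1.70, -0.79 and -0.55, each still called.

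The stretches before the transcription start are shown for the called members SLC3A2 and SLC7A5 and for SLC1A4 and SLC38A1, which were not called. Each stretch holds letters of an element of the NRF2 or the ATF4 pathway. They run from 100 bases before to 10 bases after an annotated start, 5′ to 3′ on the gene's strand, and come from the RefSeq promoter table (GRCh38.p14), which matched 9 of the 10 members (all but SLC7A11) with 17 starts. Capitals mark a match to TGACNNNGC, an antioxidant response type element, or to TGATGNAA, an amino acid response type element, either strand being searched. These motifs share no letters at any member start. SLC7A6, SLC7A7, SLC7A1 and SLC1A5, which were not called, also hold a match within such a stretch and are not shown.
SLC3A2 (chr11:62881599-62881708, plus strand): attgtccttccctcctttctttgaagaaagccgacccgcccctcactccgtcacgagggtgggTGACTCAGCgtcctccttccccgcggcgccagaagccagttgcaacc
SLC7A5 (chr16:87869498-87869607, minus strand): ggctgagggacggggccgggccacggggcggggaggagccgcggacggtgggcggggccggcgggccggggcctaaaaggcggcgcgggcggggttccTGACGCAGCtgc
SLC1A4 (chr2:64989299-64989408, plus strand): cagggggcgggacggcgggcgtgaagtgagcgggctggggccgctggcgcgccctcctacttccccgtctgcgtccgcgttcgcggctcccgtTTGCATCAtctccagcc
SLC38A1 (chr12:46266507-46266616, minus strand): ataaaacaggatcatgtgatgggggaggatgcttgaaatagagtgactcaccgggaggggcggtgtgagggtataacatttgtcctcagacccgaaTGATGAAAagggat

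In windows of 300 bases, TGACNNNGC occurred in 6 of the 17 member windows, each at a different gene, and in 13.3% of all 35116 promoter windows. TGATGNAA occurred in 5 of the 17 member windows, again each at a different gene, and in 3.62% of all windows. In the bases before the start alone, TGACNNNGC occurred in 5 of the 17 member windows and 10.9% of all windows, and TGATGNAA in 1 of the 17 and 3.14% of all windows. The SLC3A2 match, TGACTCAGC, lies at -37 to -29 of one of its 3 annotated starts, counted with the first transcribed base as 1. That of SLC7A5 spans its start, from -2 to 7. Of the members that hold TGACNNNGC, SLC3A2 and SLC7A5 were called and SLC7A6, SLC7A7, SLC7A1 and SLC1A5 were not. TGATGNAA was present at SLC3A2, SLC7A1, SLC1A5, SLC1A4 and SLC38A1, among which SLC3A2 was the only one called. These are matches of letters. Which start was used in THP-1 cells, and whether a factor bound there, was not measured.

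The y+L light chains of SLC3A2 were not called. SLC7A6, or y+LAT2, exchanges arginine for glutamine and sodium (ENSG00000103064, on the plus strand of chromosome 16, 68264516 to 68301823), and measured 31.7, 34.0 and 30.2 CPM in control against 37.2, 36.4 and 37.2 CPM in pristimerin libraries. All 3 pristimerin values were above all control values, but the difference did not pass the adjusted threshold (0.21, SE 0.08, 95% interval 0.04 to 0.37, adjusted p = 0.055 in edgeR's test). It did pass with DESeq2 (0.22, adjusted p = 0.0403) and without control replicate 2 (0.26, adjusted p = 0.0274). SLC7A6 overlaps SLC7A6OS on the opposite strand, which has 33.4% of its CPM, and its value is uncertain if the counting ignored strand. SLC7A7, or y+LAT1, performs the same kind of exchange (ENSG00000155465, on the minus strand of chromosome 14, 22773222 to 22829820) and was the least abundant member in CPM, with 5.21, 4.98 and 4.64 CPM in control and 4.03, 3.78 and 4.58 CPM in pristimerin libraries. Its groups did not overlap either, by the narrow gap between 4.64 and 4.58, and the difference was not called (-0.27, SE 0.14, 95% interval -0.55 to 0.02, adjusted p = 0.149 in edgeR's test). Other light chains of SLC3A2 were scarce. SLC7A8 (LAT2) had a mean of 0.0742 FPKM in control and 0.0254 FPKM in pristimerin libraries and was not called (-1.46, adjusted p = 0.0639 in edgeR's test), but was called without pristimerin replicate 2 (-2.43) and was at -0.91 without pristimerin replicate 1. SLC7A10 stayed at a mean of at most 0.0161 FPKM in either group.

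SLC7A1, or CAT1, takes up arginine and lysine without a heavy chain (ENSG00000139514, on the minus strand of chromosome 13, 29509414 to 29595688). It measured 201, 189 and 206 CPM in control and 218, 215 and 209.9 CPM in pristimerin libraries, slightly higher in each of the latter, with a log2 fold change of 0.11 (SE 0.06, 95% interval -0.01 to 0.23) that was not called (adjusted p = 0.173 in edgeR's test). SLC1A5, or ASCT2, an exchanger of glutamine and other neutral amino acids (ENSG00000105281, on the minus strand of chromosome 19, 46774883 to 46788594), measured 177, 151 and 163 CPM against 159, 149 and 154 CPM, and its groups overlapped. Its log2 fold change of -0.09 (SE 0.07, 95% interval -0.23 to 0.05) was not called (adjusted p = 0.357 in edgeR's test). A decrease as large as that of SLC7A5 lies outside the interval. The value was -0.02 without control replicate 1 and -0.14 without control replicate 2. SLC1A4, or ASCT1, which carries serine, alanine and cysteine (ENSG00000115902, on the plus strand of chromosome 2, 64988477 to 65023865), measured 140.1, 133.5 and 147.2 CPM in control and 131.7, 131.7 and 129.8 CPM in pristimerin libraries. The pristimerin values lay just under the lowest control value, and the log2 fold change of -0.10 (SE 0.06, 95% interval -0.22 to 0.03) was not called (adjusted p = 0.244 in edgeR's test). Without control replicate 3 it was -0.04.

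The sodium-coupled transporters SLC38A1 and SLC38A2 lie close together on the minus strand of chromosome 12. SLC38A1, or SNAT1 (ENSG00000111371, 46183063 to 46270017), measured 46.8, 50.9 and 55.4 CPM in control and 42.2, 48.2 and 44.8 CPM in pristimerin libraries. The groups overlapped, and the log2 fold change of -0.18 (SE 0.08, 95% interval -0.34 to -0.01) was not called (adjusted p = 0.0991 in edgeR's test), although 5 of 15 alternative settings called it. Its value was -0.10 without control replicate 3 and -0.11 without pristimerin replicate 1. SLC38A2, or SNAT2, which cells raise when amino acids are short (ENSG00000134294, 46358188 to 46372773), measured 322, 363 and 318 CPM in control and 332, 368 and 334 CPM in pristimerin libraries. Replicate 2 was the highest of its group on both sides. Its log2 fold change was 0.04 (95% interval -0.10 to 0.18, adjusted p = 0.662 in edgeR's test) and took the opposite sign with library totals (-0.03).

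**Figure D2:**
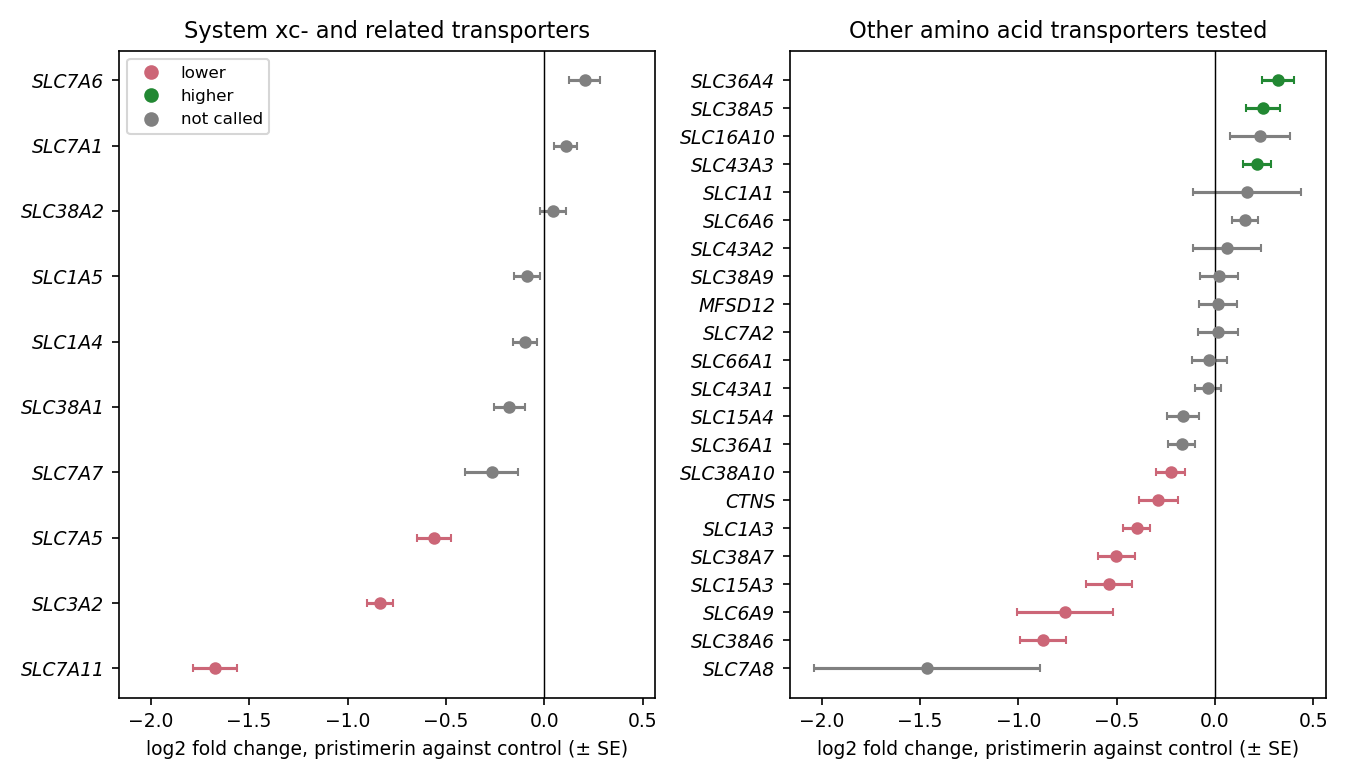
Log2 fold change (pristimerin against control, horizontal axis) with its standard error for the 10 members (left) and for the other 22 amino acid transporters tested (right), in red where called lower, green where called higher and grey where not called. On the left the called genes are SLC7A11, SLC3A2 and SLC7A5, and the remaining 7 lie between -0.27 and 0.21.

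By length-corrected level (FPKM, the count scaled for gene length and library total), the order of the 10 genes changed. In control libraries SLC3A2 (57.0 ± 3.65 FPKM, SD, n = 3), SLC38A2 (52.6 ± 4.28) and SLC1A5 (50.3 ± 3.94) headed it with overlapping ranges. They were followed by SLC7A1 (26.5 ± 0.99 FPKM), SLC7A5 (24.0 ± 3.34) and SLC1A4 (20.7 ± 0.87), each of which overlapped its neighbour. SLC38A1 (5.22 ± 0.41), SLC7A6 (4.32 ± 0.29), SLC7A11 (1.59 ± 0.13) and SLC7A7 (0.944 ± 0.059) then stood in separate steps. The system xc- light chain was therefore a minor transcript even in control cells, at under 2 FPKM. The counts and FPKM imply lengths of 9645 bases for SLC7A11, 6392 for SLC3A2, 6509 for SLC38A2 and 3332 for SLC1A5. Comparisons of level between genes depend on such lengths.

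In pristimerin libraries SLC38A2 (51.7 ± 2.98 FPKM, SD, n = 3) and SLC1A5 (45.1 ± 1.74) stood above SLC3A2 (30.5 ± 1.62), with no overlap. SLC7A5 (15.5 ± 0.81 FPKM) came after SLC1A4 (18.4 ± 0.26), and SLC7A11 (0.474 ± 0.032) was the lowest of the 10, after SLC7A7 (0.75 ± 0.07). SLC7A6 (4.75 ± 0.08) and SLC38A1 (4.39 ± 0.28) overlapped. Summed over the 10 genes, the level was 246, 236 and 248 FPKM in control and 202, 199 and 195 FPKM in pristimerin libraries, a difference of the means of 18.3%. Most of that difference of 44.4 FPKM came from SLC3A2 (a difference of -26.5 FPKM) and SLC7A5 (-8.49), whereas SLC7A11, with the largest fold change, gave -1.12 FPKM. FPKM values are relative to the plain library totals, so small differences in them can differ in sign from those in CPM, as for SLC38A2.

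The balance between SLC3A2 and its light chains was followed within each library, where scaling to the library total plays no part. The size of such a ratio still depends on the gene lengths used for FPKM. SLC3A2 was 1.78, 1.94 and 1.82 times the summed FPKM of its light chains in control and 1.43, 1.35 and 1.47 times in pristimerin libraries. The heavy chain thus exceeded the sum of its partners in all 6 libraries, by less in every pristimerin library. The difference of the mean log2 ratio was -0.38 (exact two-sided permutation test, p = 0.10, adjusted p = 0.12 over 6 ratios), and 0.10 is the smallest p that 3 libraries against 3 allow. The light chains summed to 31.8, 27.6 and 33.4 FPKM in control (mean 30.9 ± 3.01, SD, n = 3) and 22.4, 21.2 and 20.9 FPKM in pristimerin libraries (21.5 ± 0.78).

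The shares among the light-chain transcripts were apart for SLC7A11, SLC7A6 and SLC7A5. SLC7A11 made up 4.51%, 6.05% and 4.99% of their summed FPKM in control and 1.95%, 2.31% and 2.37% in pristimerin libraries. SLC7A6 made up 13.5%, 16.8% and 12.1% in control and 21.5%, 22.0% and 22.8% in pristimerin libraries. SLC7A5 made up 78.5%, 73.5% and 80.0% in control and 73.1%, 72.3% and 70.7% in pristimerin libraries, apart only by the narrow gap between 73.5% and 73.1%. It remained the largest share in each library, and SLC7A7 stayed between 2.63% and 3.96%. These shares are descriptions and were not tested.

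**Figure D3:**
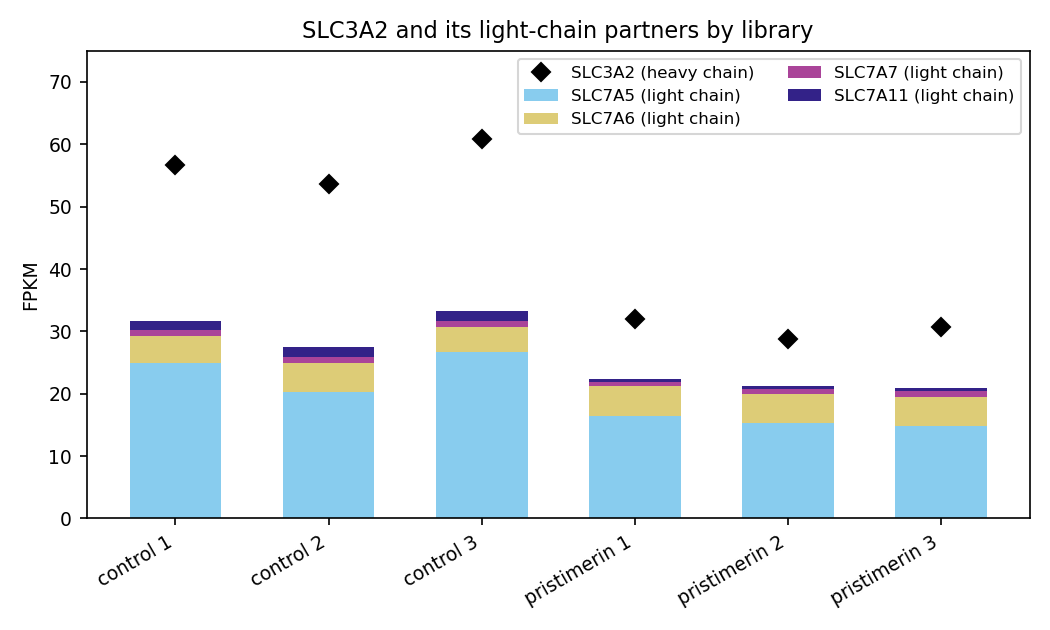
FPKM of SLC3A2 (diamonds) and of its light chains SLC7A5, SLC7A6, SLC7A7 and SLC7A11 (stacked bars from 0) in each of the 6 libraries. SLC3A2 lies above the stack in every library, and both the diamonds and the stacks are lower in the 3 pristimerin libraries, where the SLC7A11 part shrinks to between 1.95% and 2.37% of the light-chain sum.

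Within system xc-, the light chain was also lower relative to the heavy chain in each pristimerin library than in any control library. SLC7A11 was 0.0254, 0.0312 and 0.0274 of SLC3A2 in control and 0.0137, 0.0171 and 0.0161 in pristimerin libraries, a difference of -0.84 in the mean log2 ratio with no overlap (exact two-sided permutation test, p = 0.10, adjusted p = 0.12). SLC7A5 was 17.4, 12.1 and 16.0 times SLC7A11 in control and 37.4, 31.3 and 29.9 times in pristimerin libraries (difference 1.12, no overlap, exact permutation p = 0.10, adjusted p = 0.12). The ratio of SLC7A7 to SLC7A6 was lower by 0.47 and that of SLC38A1 to SLC38A2 by 0.22 on the log2 scale in pristimerin libraries, each with no overlap and with the same exact p. Without control replicate 3 the difference for SLC38A1 over SLC38A2 was -0.13. SLC1A4 was 0.380, 0.425 and 0.434 of SLC1A5 in control and 0.397, 0.425 and 0.404 in pristimerin libraries, with overlapping groups and a difference of -0.01 (exact permutation p = 0.90, adjusted p = 0.90).

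**Figure D4:**
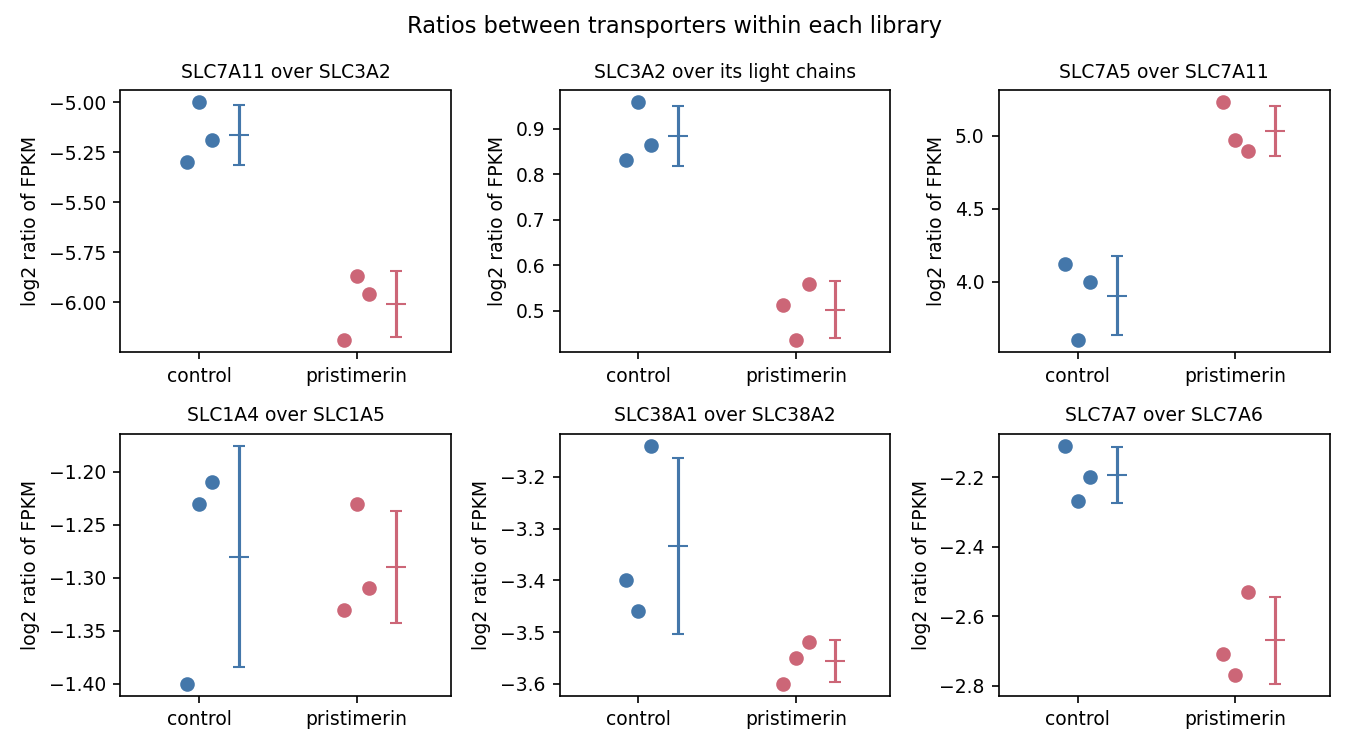
Log2 ratio of FPKM between transporters in each library (points) with the mean ± SD of 3 libraries at the right of each group, for the 6 ratios compared. The groups separate in all panels except SLC1A4 over SLC1A5, and the panel of SLC7A5 over SLC7A11 shows the widest separation, at 1.12.

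Other amino acid transporters changed in both directions. Of 46 further genes listed, 31 were in the table and 22 were tested, of which 3 were higher, 7 lower and 12 not called (45.5% called, against 29.6% of all genes), with a median log2 fold change of -0.03 beside -0.01 over all genes. SLC1A3, the glutamate importer EAAT1, which can return the glutamate that system xc- releases, fell from 84.0 ± 4.25 to 63.8 ± 3.50 CPM (SD, n = 3 each; -0.40, SE 0.07, adjusted p = 0.00036 in edgeR's test). In family SLC38, SLC38A6 (-0.87), the lysosomal glutamine exporter SLC38A7 (-0.50) and SLC38A10 (-0.23) were lower. The call of SLC38A10 was made under 10 of 15 alternative settings, among the left-out libraries only without control replicate 2, and its value was -0.13 without control replicate 1. SLC38A5, a glutamine transporter of the plasma membrane, was higher (0.24, adjusted p = 0.0401 in edgeR's test), a call made under 6 of 15 alternative settings and, with a library left out, only without control replicate 1 or pristimerin replicate 2. SLC38A9, a lysosomal arginine sensor, measured 28.3 and 28.8 CPM. SLC38A6 lies opposite the more abundant TRMT5, and its value is uncertain if counting ignored strand.

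Among uniporters and proton-coupled carriers, SLC36A4 (0.32) and SLC43A3 (0.21), a member of an amino acid carrier family known for nucleobase transport, were higher. The call of SLC36A4 was made under 13 and that of SLC43A3 under 8 of 15 alternative settings, the latter not without control replicate 3 (0.20) or pristimerin replicate 3 (0.16). SLC36A1, a lysosomal exporter of small amino acids, measured 58.6 and 52.1 CPM (-0.17, adjusted p = 0.0695 in edgeR's test), and SLC43A2, a leucine uniporter, measured 4.14 and 4.30 CPM; neither was called, although 6 of 15 alternative settings called SLC36A1 lower. CTNS, which exports cystine from lysosomes and so is a further source of cysteine in the cytosol, was lower in pristimerin libraries, at 10.6 ± 0.47 CPM in control and 8.65 ± 0.44 CPM (SD, n = 3 each; -0.29, SE 0.10, adjusted p = 0.0391 in edgeR's test), a call made under 8 of 15 alternative settings and, with a library left out, only without control replicate 1. The lysosomal peptide carrier SLC15A3 was lower as well (-0.54, adjusted p = 0.00235 in edgeR's test).

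Of 23 genes listed as enzymes that use or return cysteine and glutamate, 19 were tested, 6 were lower, 4 higher and 9 not called (52.6% called, against 29.6% of all genes), with a median log2 fold change of -0.32. GCLM, the modifier subunit of glutamate-cysteine ligase, fell from 162 ± 17.7 to 61.4 ± 5.72 CPM (-1.40, SE 0.08, adjusted p = 1.85e-09 in edgeR's test), close in fold to SLC7A11. The ectopeptidase ANPEP, which releases cysteine from the breakdown of extracellular glutathione (-0.64), and the thioredoxin reductase TXNRD1, known to reduce cystine (-0.59), were lower, and the glutamate dehydrogenase GLUD1 was higher (0.38). GLUD1 overlaps SHLD2 on the opposite strand. CHAC1, which degrades glutathione, measured 1.21 and 0.857 CPM and was not called.

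Among 19 genes described as controlling SLC7A11, all tested, 4 were lower, 1 higher and 14 not called (26.3% called, close to the 29.6% of all genes), with a median of -0.04. ATF3 measured 1.93 and 0.321 CPM (-2.54, SE 0.31, adjusted p = 1.23e-05 in edgeR's test). It was read 57, 44 and 42 times in control and 11, 10 and 5 times in pristimerin libraries, so this rests on few reads. The transcripts of the activators of SLC7A11 did not move past the test: ATF4 measured 311.9 ± 20.5 and 307.9 ± 3.28 CPM and NFE2L2, which encodes NRF2, 89.8 ± 3.29 and 91.1 ± 3.23 CPM (SD, n = 3 each). NFE2L2 overlaps AGPS and HNRNPA3, both more abundant, on the opposite strand. MAFG, a small MAF partner of NRF2 (-0.37), DDIT3 (-0.93) and the signalling suppressor SOCS2 (-0.53) were lower. CD44, which binds and stabilises the SLC7A11 protein, was higher (0.18, adjusted p = 0.0447 in edgeR's test), a call made under 4 of 15 alternative settings and, with a library left out, only without control replicate 2. MAFG overlaps SIRT7 on the same strand and DDIT3 the more abundant MARS1 on the opposite strand.

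Of 26 NRF2 targets that are not members, all tested, 21 were lower and 0 higher, with a median log2 fold change of -0.73; without adjustment 23 were lower and 0 higher at p under 0.05, and DESeq2 called 20 lower and 0 higher. HMOX1 (-6.14), PIR (-2.40) and FTH1 (-2.11) had the largest decreases among those that averaged at least 5 CPM over the 6 libraries. OSGIN1, named after its values were seen, measured 8.62 and 1.22 CPM (-2.83) and lay under that limit. Reads of FTH1 can be shared with its processed pseudogenes. Of 30 ATF4 targets that are not members, 26 were tested, 6 were lower, 3 higher and 17 not called, with a median of -0.06. PPP1R15A (-0.85) and ATF5 (-0.73) were lower, and ASNS, the asparagine synthetase, measured 1.26 and 1.07 CPM and was not called. ATF5 lies opposite the more abundant NUP62. ASNS overlaps a more abundant gene (mean 8.06 CPM) on its own strand, so its level and its lack of a call are uncertain however strand was handled. The percentage called was 80.8 for the NRF2 list and 34.6 for the ATF4 list, beside 29.6% of all genes. Several genes stand in more than one of the lists of cystine use, SLC7A11 control, NRF2 and ATF4 targets, GCLM and DDIT3 among them, and the difference between lists was not tested.

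Of 26 genes listed for amino acid sensing by mTORC1 and the starvation kinase GCN2, 24 were tested, 4 were higher, 3 lower and 17 not called (29.2% called), with a median of -0.01. SESN3, a stress-induced inhibitor of mTORC1 signalling, rose from 324 ± 33.9 to 488 ± 52.5 CPM (SD, n = 3 each; 0.59, SE 0.08). FLCN (-0.40) and RRAGA (-0.26), which act in the activation of mTORC1 at lysosomes, were lower. FLCN lies opposite the more abundant MPRIP, and it was not called without control replicate 3 (-0.34), nor RRAGA without pristimerin replicate 1 (-0.23).

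The genes whose profile over the 6 libraries was most like that of SLC7A11, among 10404 tested genes averaging 5 CPM or more, were NQO1 (Euclidean distance 0.193 on log2 CPM centred on each gene's mean), MS4A14 (0.207), DNAJB2 (0.274), MSC-AS1 (0.307) and HSPA1B (0.330). NQO1, the quinone reductase, measured 82.6, 94.3 and 99.3 CPM in control and 30.7, 29.8 and 30.5 CPM in pristimerin libraries. Reads of HSPA1B can be shared with its near-identical copy HSPA1A. For SLC3A2 the nearest were PLIN2 (distance 0.0502), which coats lipid droplets, BST2 (0.088), the biliverdin reductase BLVRB (0.123), GIPR (0.124) and SERPINF1 (0.128). PLIN2 measured 63.0, 60.5 and 68.5 CPM in control and 36.4, 33.5 and 35.3 CPM in pristimerin libraries. These distances rest mainly on the difference between the groups and are descriptions.

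Counting only whether the CPM ranges of the groups were apart, 7 of the 10 transporters did not overlap, beside 43.3% of all genes tested. Of these 7, SLC7A11, SLC3A2, SLC7A5, SLC7A7 and SLC1A4 were lower and SLC7A6 and SLC7A1 higher in pristimerin libraries. The calls of SLC7A11, SLC3A2 and SLC7A5 were made under each of 15 alternative settings. Those of the other members varied, with SLC38A1 called under 5, SLC7A6 under 4, SLC7A1 under 1 and SLC1A4 under 1 of the settings, and SLC7A7 (14 settings gave a value), SLC1A5 and SLC38A2 under 0.

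**Figure D5:**
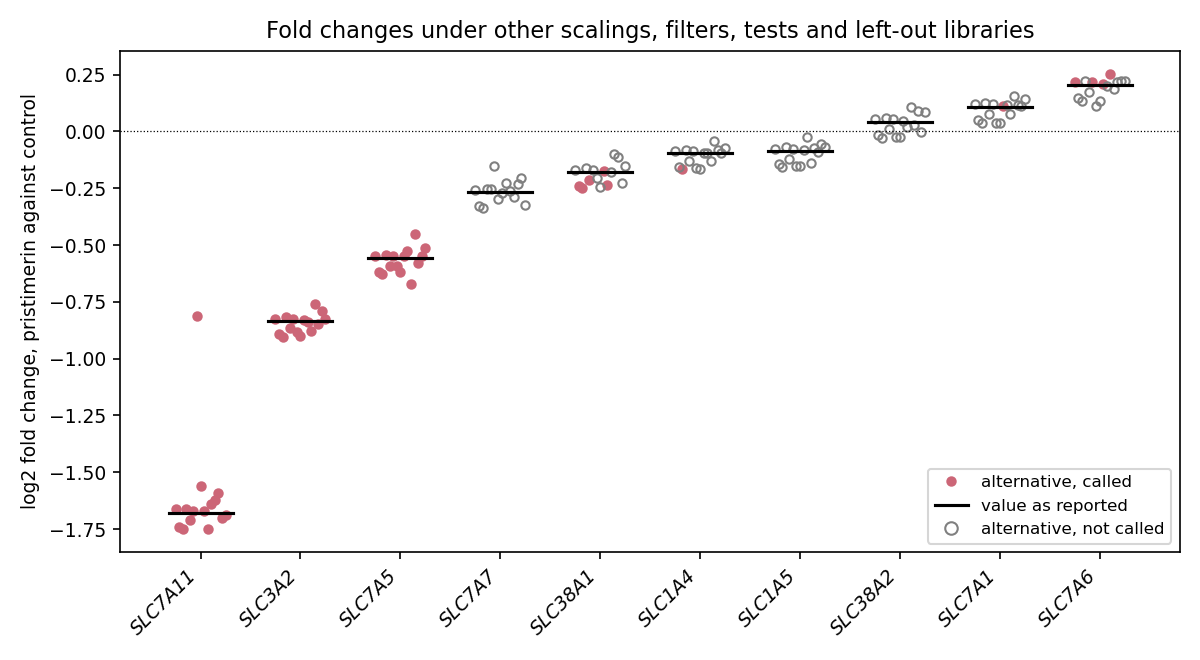
Log2 fold change (pristimerin against control) of the 10 transporters under each alternative setting (filled red where called, open grey where not) and as reported (black bar). SLC7A11 stays between -1.75 and -1.56 except for one point at -0.81, from log2(FPKM + 1), and SLC3A2 and SLC7A5 keep filled points throughout.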

How the data were processed

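Poly(A)-selected, dUTP strand-specific libraries were sequenced in pairs on Illumina instruments, per the labels' protocols. The build is hg38, per the submitters' processing notes. In the sources used here, aligner, counter and strand setting are not given. The authors deposited whole-number counts, unnormalised, and FPKM values, and a table that repeats both. Counts were tested with edgeR 4.0.16 in R 4.3.3 (filterByExpr with a minimum count of 10 and total of 15, TMM, quasi-likelihood F test, group as the only term), with Benjamini-Hochberg adjustment over 15305 genes and a threshold of 0.05. Standard errors were derived from the fold change and the F statistic. The procedure was tested on simulated data. Exact permutation tests used scipy 1.17.1 on FPKM ratios. DESeq2 1.42.0 and limma 3.58.1 served as alternatives, with other scalings, filters, a replicate block and each library left out.

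Members, gene lists, motifs and tests were chosen with earlier results of these data known. Named list genes are a fixed set of 13 and up to 3 further called genes per list with the largest fold change and a mean over the 6 libraries of at least 5 CPM. A planned comparison of member proteins was not made. A further list of cell type markers is not reported here.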

Additional observations from a re-analysis of the deposited data

How the results depend on the processing

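The calls of SLC7A11, SLC3A2 and SLC7A5 kept their direction and side of the threshold under all 15 settings, with log2 fold changes of -1.75 to -0.81, -0.90 to -0.76 and -0.67 to -0.45. The count of genes called higher, 2216, was 1392 with library totals, 1081 with limma on log2(FPKM + 1) and 1084 with limma on log2(FPKM + 0.1), which change the test and filter as well as the scale, and the median of all genes shifted to -0.08 with library totals. Members called lower numbered 5 with library totals, where SLC1A4 (-0.17) and SLC38A1 (-0.25) passed. Members called higher numbered 1 with DESeq2 size factors and with DESeq2's test, in both cases SLC7A6 (0.22). SLC38A1 also passed with upper-quartile scaling (-0.24) and among genes of at least 5 CPM (-0.21). The other transporters called higher numbered 1 with upper-quartile scaling, 1 with library totals, 1 above 5 CPM, and 0 on either FPKM scale.

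Leaving out each library gave 1742 to 2357 genes higher and 1534 to 2329 lower, 0 to 1 members higher and 3 to 4 lower, and 1 to 3 of the other transporters higher and 4 to 6 lower. The lowest counts of genes came without control replicate 3, and those of the other transporters without replicate 3 of either group. SLC7A6 ranged from 0.19 to 0.26, SLC38A1 from -0.24 to -0.10, SLC38A2 from -0.00302 to 0.109 and the log2 ratio of SLC1A4 to SLC1A5 from -0.0716 to 0.023.

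Signs turned only for values that were not called. SLC38A2 was -0.0169 with upper-quartile scaling, -0.0275 with library totals, -0.0251 on log2(FPKM + 1) and -0.0255 on log2(FPKM + 0.1). SLC38A9 was -0.0421, -0.0527, -0.0398 and -0.0514 under these settings, -0.0156 above 5 CPM, and -0.0694 to 0.124 with a library left out. NFE2L2 was -0.0403, -0.051, -0.0428 and -0.049, -0.0142 above 5 CPM, and -0.00659 to 0.0549 with a library left out. SLC43A2 was -0.00882 with library totals, -0.00277 on log2(FPKM + 1), and -0.13 to 0.239 with a library left out, and ATF4 -0.0696 to 0.0384. On log2(FPKM + 1), the called genes SLC7A11 (-0.812), SLC38A6 (-0.527), SOCS2 (-0.286) and ATF3 (-0.465) moved by over 1.5 times and stayed called. On the same scale SLC36A4 (0.209), CD44 (0.0953), SLC38A5 (0.159) and SLC43A3 (0.136) moved by over 1.5 times and were not called. Genes under 5 CPM, SLC7A7 among them, have no value above that filter. The causes were not tested.

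Same-numbered replicates deviated together weakly (correlations of 0.098, 0.137 and 0.037 for numbers 1, 2 and 3), and each library correlated best with its own number, a hint from the data and not the design. With the replicate block, 3150 genes were higher and 2948 lower, and 2 members were higher (SLC7A6, 0.21, and SLC7A1, 0.11) and 4 lower, SLC38A1 (-0.18) being added. Exact tests on 3 libraries against 3 cannot go below 0.10.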
